A study of Homo sapiens with 9 samples.

Results

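The genes described here are 9 inhibitors of the cell cycle and targets of the tumour suppressor p53 in human breast cancer cells, namely CDKN1A, CDKN1B, CDKN1C, CDKN2C, GADD45A, GADD45B, BTG2, MDM2 and SESN1. They were taken by symbol from the gene count table, where each had 1 row among 60240 genes, and all 9 were among the 17058 genes with enough counts to be tested. Messenger RNA had been sequenced from MDA-MB-231, an established basal-type breast cancer line used as a model of triple negative disease, in 3 groups of 3 libraries. Control cells carried a lentiviral, doxycycline-inducible vector for GFP and luciferase. ERβ1 cells carried the same kind of vector with isoform 1 of oestrogen receptor beta, the product of ESR2, added. The third group was ERβ1 cells that also received CLI, a ligand, for 24 h. All 3 groups, controls included, were grown with doxycycline at 100 ng/ml for 3 days, no control cells were given CLI, and the labels do not say whether the replicates were separate cultures, so p-values measure the spread between these libraries.

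Cyclin-dependent kinases drive cells from growth into DNA synthesis and division, and 2 families of small proteins hold them back. Members of the CIP/KIP family (CDKN1A or p21, CDKN1B or p27, CDKN1C or p57) bind complexes of cyclins with their kinases, while those of the INK4 family (CDKN2C or p18 among them) bind CDK4 and CDK6. The transcription factor p53 induces CDKN1A, MDM2, GADD45A, BTG2 and SESN1 after DNA damage, and the MDM2 protein marks p53 for destruction, which closes a feedback loop. MDA-MB-231 cells are known to lack CDKN2A. Several of these genes also answer to other signals: GADD45B to NF-kB and TGF-beta, CDKN1A to TGF-beta and Sp1 factors, and BTG2 and GADD45A to stress and growth signals.

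The libraries held 39902456 to 55387538 estimated counts. ESR2 stood at 0.132 to 0.14 counts per 1000000 counts of the library (CPM) in control, 115 to 118 CPM in ERβ1 and 82.2 to 87.7 CPM in ERβ1 cells with CLI, which matched each label as control or receptor cells. The mesenchymal gene VIM was high in all libraries (3041 ± 110 CPM in control, SD, n = 3), the basal keratins KRT5, KRT14 and KRT17 summed to at most 1.49 CPM in any library with KRT5 at 0 counts throughout, and PGR reached at most 0.124 CPM. ERβ1 replicate 2 and the replicate numbered 2 with CLI deviated from their groups together (correlation of deviations 0.45 over 11196 genes). The latter library also held 5.98 CPM of ESR1, the classical oestrogen receptor gene, against 0.765 and 0.0677 CPM in the other libraries with CLI and at most 0.114 CPM elsewhere, a difference picked out after the values were seen. Without that library the same 4 members were called with CLI against control, with CDKN2C as a further one, and CDKN1A stayed called against ERβ1 cells at a log2 difference of 0.20 (edgeR adjusted p = 0.0438). Among 8 proliferation genes, 3 were lower in ERβ1 cells than in control and 0 higher, against 10.7% lower and 10.7% higher of all genes tested. The sum of these 8 genes ranged from 3054 to 3209 CPM in control, 2834 to 3033 CPM in ERβ1 and 2860 to 2932 CPM with CLI. The sums of 10 luminal breast markers were 1016 to 1045 CPM in control, 965.8 to 971.9 CPM in ERβ1 and 945.2 to 971.6 CPM with CLI. Of the 7 tested, 3 were lower in ERβ1 cells and 0 higher, against the same 10.7% each way of all genes. The luminal sum hides large changes in low genes: AGR2 stood at 0.748 to 1.05 CPM in control with 0 counts in all receptor libraries, and SPDEF at 2.82 to 3.47 CPM in control against 0.214 to 0.695 CPM in ERβ1 cells (edgeR adjusted p = 0.00135). The sums of 6 fibroblast markers were 7.15 to 9.55, 9.22 to 10.7 and 10.1 to 15.1 CPM in the same order. Those of 5 blood cell markers were 0.07 to 0.14, 0.372 to 1.72 and 0.533 to 1.02 CPM, with HBB at 0. LYZ, the 1 blood cell marker tested, was called higher in ERβ1 cells and with CLI against control (log2 fold changes 2.48 and 3.13, edgeR adjusted p = 0.00192 and 0.000325). Of the fibroblast markers, LUM was called higher in both receptor groups, from 6 counts over the 3 control libraries to 44 in the ERβ1 libraries (edgeR adjusted p = 0.00227) and 74 with CLI (0.000331). COL1A1 was also called higher in both, at log2 fold changes of 0.65 and 0.90 (edgeR adjusted p = 0.0456 and 0.00918). COL1A2 had log2 fold changes of -0.90 and -1.07 and was not called. Thus 2 of the 3 tested were called higher in each receptor group, against 10.7% and 13.3% of all genes. The part of these differences in the results was not tested.

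Across the 3 groups, 5 of the 9 genes changed in at least 1 comparison. GADD45A fell with the receptor, MDM2 fell slightly, BTG2 rose from a low level, GADD45B was higher with the liganded receptor than in control, and CDKN1A rose modestly with the ligand. With the replicate number as a block, CDKN1A was no longer called for CLI against ERβ1 cells (edgeR adjusted p = 0.0503 over 9 libraries). CDKN1B, CDKN1C, CDKN2C and SESN1 were not called in any comparison. In bulk RNA, a lower level in each cell and fewer cells with the transcript cannot be told apart. In ERβ1 cells against control, 1 member was called higher and 2 lower (edgeR quasi-likelihood test, adjusted p under 0.05 over all genes), which is 3 of 9 against 21.4% of all genes tested (10.7% higher and 10.7% lower). The groups did not overlap for 4 of 9, 2 higher and 2 lower, against 39.6% of all genes (19.6% higher and 20% lower). With CLI against ERβ1 cells, 1 of 9 was called, higher, against 1.47% of all genes (1.04% higher and 0.428% lower). The groups did not overlap for 2 of 9, 1 higher and 1 lower, against 18.8% (9.53% and 9.26%). In ERβ1 cells with CLI against control, 2 were higher and 2 lower, 4 of 9 against 26.5% of all genes (13.3% higher and 13.1% lower), and 5 did not overlap, 3 higher and 2 lower, against 41.7% (20.5% and 21.2%). The median log2 fold changes of the 9 genes were 0.00075, -0.07 and -0.07 in these comparisons, and those of all genes -0.00057, -0.00027 and -0.00023. The first and last comparisons share the control libraries, and the first and second share the ERβ1 libraries.

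**Figure D1:**
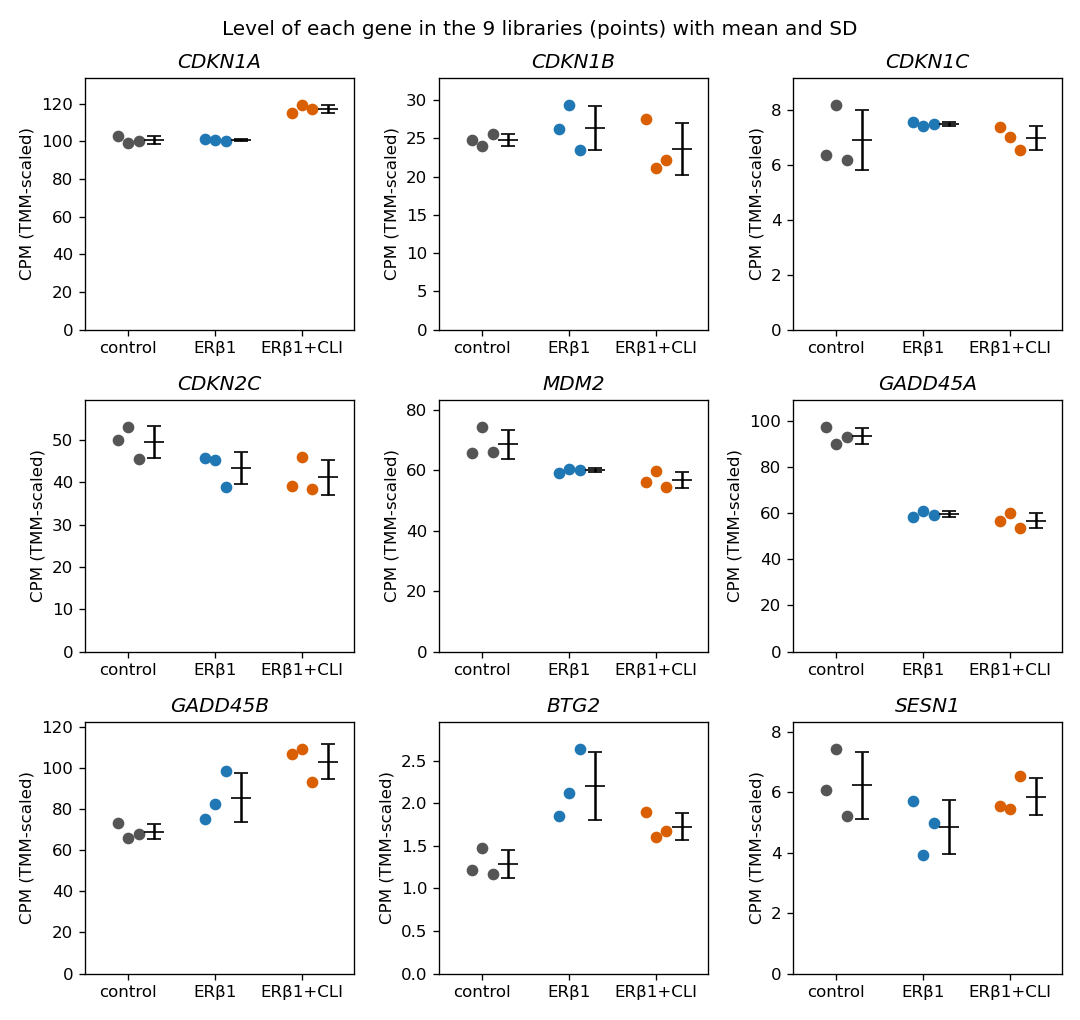
Level of each of the 9 genes in CPM (TMM-scaled, linear axis from 0) in every library, as points by group, with the group mean and SD in black (n = 3). All GADD45A points of the receptor groups lie between 53.6 and 61.2 CPM, below the control range of 90.1 to 97.4 CPM, and the CDKN1A points with CLI, 115 to 119 CPM, lie above both other groups.

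Levels were compared between genes per kilobase of the principal transcript in GENCODE release 29. In control cells GADD45A was highest at 62.6 ± 2.43 CPM per kb (SD, n = 3), followed by GADD45B at 50.3 ± 2.76, CDKN1A at 44.4 ± 0.86 and MDM2 at 27.2 ± 1.9 CPM per kb. CDKN2C came next at 17.1 ± 1.31, then CDKN1B at 9.33 ± 0.295, CDKN1C at 3.56 ± 0.569, SESN1 at 1.78 ± 0.316 and BTG2 at 0.473 ± 0.0608 CPM per kb. In ERβ1 cells GADD45B stood first at 62.2 ± 8.63 CPM per kb and GADD45A was at 39.9 ± 0.887, below CDKN1A at 44.5 ± 0.243. With CLI the order at the top was the same, with GADD45B at 75 ± 6.24, CDKN1A at 51.6 ± 0.938 and GADD45A at 38 ± 2.14 CPM per kb. The choice of length matters for MDM2, whose annotated exons together span 13284 bases against 2523 in the principal transcript: by all exons it stood at 5.17 CPM per kb in control cells, below CDKN1B at 8.82. By all exons CDKN1A (33) and GADD45B (32.3) also changed places in control cells.

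Of the CIP/KIP inhibitors, CDKN1A (ENSG00000124762, chromosome 6, 36676460 to 36687339, plus strand, GRCh38) did not pass the test with the receptor alone and rose with the ligand. Its level was 102.9, 99.1 and 100.2 CPM in control replicates 1 to 3, 101, 100.7 and 100.3 CPM in ERβ1 cells, and 115, 119 and 117 CPM with CLI. The control and ERβ1 ranges overlapped, and all 3 libraries with CLI lay above all 6 others. Between ERβ1 and control cells the log2 fold change was 0.00075 with a 95% interval of -0.07 to 0.07 (edgeR adjusted p = 0.991). CLI raised CDKN1A over ERβ1 cells by a log2 fold change of 0.22 ± 0.03 (SE), or 1.16-fold with a 95% interval of 1.11 to 1.22 (edgeR adjusted p = 0.012), in 3 of 3 libraries. Against control cells the log2 fold change with CLI was also 0.22 ± 0.03 (edgeR adjusted p = 0.00109).

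The numbers of the replicates counted as pairs between ERβ1 cells with and without CLI, though libraries numbered 1 and 3 also deviated together across numbers. With that number as a block, the rise of CDKN1A kept its size of 0.22 but not its call, at an edgeR adjusted p = 0.0503 over all 9 libraries and 0.136 within the 6 compared. Its call against ERβ1 cells also ended without ERβ1 replicate 1, 2 or 3 or the third library with CLI, at adjusted p of 0.0542, 0.0614, 0.0606 and 0.0536, with log2 fold changes of 0.21 to 0.22. Against control cells the call held in all 19 alternative analyses (log2 fold change 0.21 to 0.24).

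The other CIP/KIP genes were not called. CDKN1B (ENSG00000111276, chromosome 12, 12715058 to 12722371) stood at 24.8, 24 and 25.5 CPM in the controls, 26.2, 29.3 and 23.5 CPM in ERβ1 cells and 27.5, 21.1 and 22.2 CPM with CLI. The groups overlapped, and the receptor groups varied more (SD 2.91 and 3.4 CPM) than the controls (0.785 CPM). The 95% intervals of its log2 fold change were -0.16 to 0.34 with the receptor alone and -0.41 to 0.09 for the ligand. CDKN1C (ENSG00000129757, chromosome 11, 2883213 to 2885773), an imprinted gene, was low, at 6.36, 8.17 and 6.17 CPM in the controls, 7.55, 7.42 and 7.5 CPM in ERβ1 cells and 7.39, 7 and 6.55 CPM with CLI. Every library with CLI was below every ERβ1 library for CDKN1C, as for 9.26% of all genes tested in that direction, but the difference was not called (log2 fold change -0.10, 95% interval -0.36 to 0.16, edgeR adjusted p = 0.795).

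CDKN2C (ENSG00000123080, chromosome 1, 50960745 to 50974633), the INK4 inhibitor of CDK4 and CDK6 in the set, had lower means in the receptor groups without passing the test. It stood at 50.1, 53.1 and 45.5 CPM in the controls, 45.8, 45.4 and 39 CPM in ERβ1 cells and 39.1, 46.1 and 38.6 CPM with CLI. The replicate numbered 2 with CLI lay inside the control range and the other libraries with CLI lay below it. The log2 fold changes against control were -0.19 (95% interval -0.40 to 0.02, edgeR adjusted p = 0.182) and -0.26 with CLI (-0.47 to -0.06, adjusted p = 0.0653). Without the library numbered 2 with CLI the latter was -0.35 and was called at an adjusted p of 0.0244.

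The other INK4 genes differed. CDKN2A and CDKN2B had 0 counts in all 9 libraries, which allows up to 0.0745 CPM in the shallowest library at a floor of 3 counts and covers counting error only. CDKN2D (p19) fell from 34.1 ± 0.723 CPM in control to 29.4 ± 1.38 CPM in ERβ1 cells (SD, n = 3), a log2 change of -0.21 (edgeR adjusted p = 0.023). That call ended without any of control replicates 1, 2 and 3 or ERβ1 replicates 2 and 3, at adjusted p of up to 0.0881. With CLI against control CDKN2D was also called lower (log2 fold change -0.23, edgeR adjusted p = 0.014), in 17 of 19 alternatives. This second call was lost without control replicate 1 or the third library with CLI (0.053 and 0.0515). CDKN3, a phosphatase that acts on cyclin-dependent kinases, rose from 77.1 ± 2.06 to 91.8 ± 3.98 CPM (SD, n = 3), a log2 change of 0.25 (edgeR adjusted p = 0.00465), and its call held in all 19 alternatives.

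**Figure D2:**
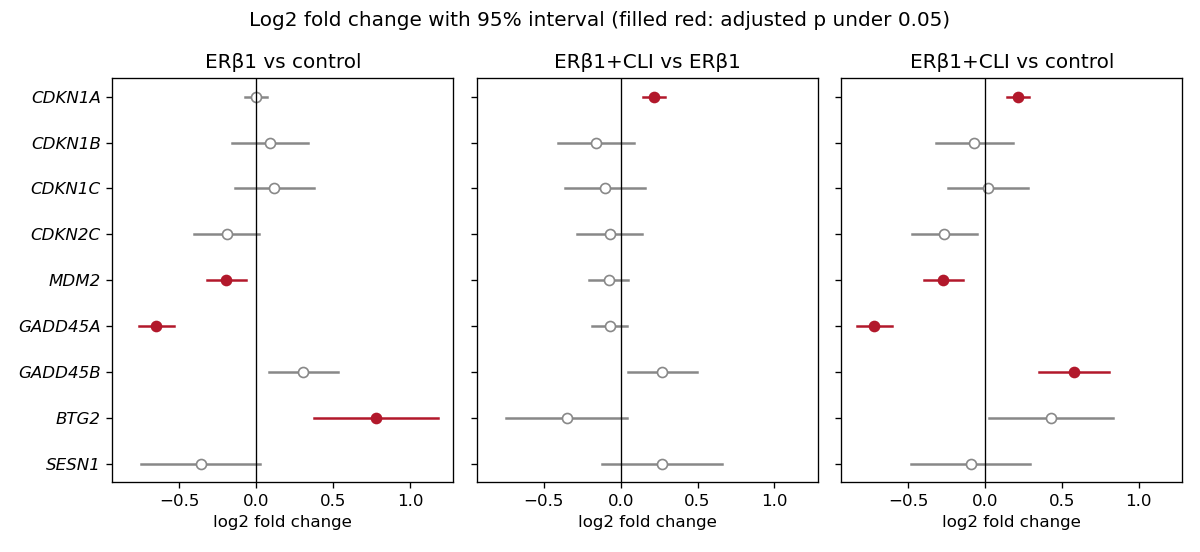
Log2 fold change of each gene (x axis) in the 3 comparisons, with its 95% interval as a line, from the edgeR fit of all 9 libraries. Filled red points were called at an adjusted p under 0.05: 3 in ERβ1 cells against control, 1 for CLI against ERβ1 cells and 4 for ERβ1 cells with CLI against control.

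The GADD45 proteins are small stress-induced proteins that bind partners such as PCNA, CDK1 and the kinase MAP3K4. GADD45A (ENSG00000116717, chromosome 1, 67685061 to 67688338, plus strand) showed the largest fall of the set. It stood at 97.4, 90.1 and 93.3 CPM in the controls, 58.6, 61.2 and 59.2 CPM in ERβ1 cells and 56.7, 60 and 53.6 CPM with CLI. Every receptor library was far below every control library, while the receptor groups overlapped each other. The log2 fold change against control was -0.65 ± 0.05 (SE) in ERβ1 cells, or 0.638-fold, and -0.72 ± 0.05 with CLI, or 0.607-fold (edgeR adjusted p = 4.86e-05 and 1.7e-05). Both calls held in all 19 alternatives, with ranges of -0.67 to -0.61 and -0.76 to -0.68. CLI changed it by -0.07 against ERβ1 cells, with a 95% interval of -0.18 to 0.04 (edgeR adjusted p = 0.626).

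GADD45B (ENSG00000099860, chromosome 19, 2476122 to 2478259, plus strand) had values on the other side of control. It stood at 73.3, 65.9 and 67.8 CPM in the controls, 75.2, 82.6 and 98.4 CPM in ERβ1 cells and 107, 109 and 93.2 CPM with CLI. All receptor libraries were above all control libraries, ERβ1 replicate 1 by the smallest margin, and the receptor groups overlapped. With CLI against control GADD45B rose by a log2 fold change of 0.58 ± 0.10 (SE), or 1.49-fold (edgeR adjusted p = 0.00285), and this call held in all 19 alternatives. In ERβ1 cells without CLI the log2 fold change was 0.31 with a 95% interval of 0.08 to 0.53, just short of the threshold (edgeR adjusted p = 0.058). It was called under 4 alternatives, with no filter (0.0393), with a filter of 1 CPM (0.0445), with DESeq2 (0.0186) and without ERβ1 replicate 1 (0.0279).

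Within each library the ratio of GADD45B to GADD45A, in CPM with no correction for length and chosen for display after the values were seen, was 0.752, 0.732 and 0.727 in control. It was 1.28, 1.35 and 1.66 in ERβ1 cells and 1.88, 1.82 and 1.74 with CLI, so that the 3 groups did not overlap. The third family gene, GADD45G, was near the limit of detection with 14, 42 and 43 counts summed over the 3 libraries of each group. Receptor cells gave a call of higher (fitted log2 fold change 1.47, adjusted p = 0.0321 in edgeR) and with CLI against control (1.52, adjusted p = 0.0229), but these calls were lost in 12 and 8 of 18 alternatives, DESeq2 among them (adjusted p = 0.0734 and 0.0532). Leaving out any library other than control replicate 2 or the second with CLI ended the first call, at adjusted p of up to 0.107. Leaving out control replicate 1 or 3 or the first library with CLI or the third ended the second, at up to 0.081.

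**Figure D3:**
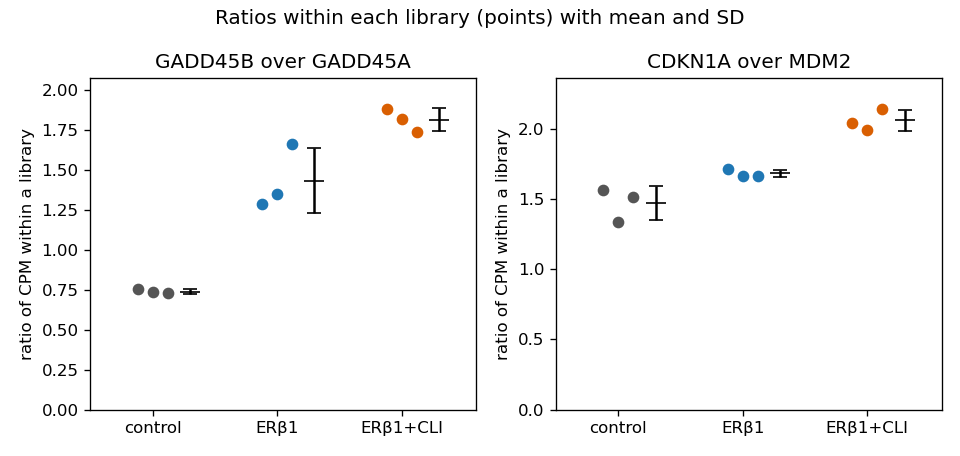
Ratio of GADD45B to GADD45A (left) and of CDKN1A to MDM2 (right) in every library, each a ratio of CPM with no length correction, on linear axes from 0, with the group mean and SD in black (n = 3). The left ratio averages 0.737 in control, 1.43 in ERβ1 cells and 1.81 with CLI, and the right ratio 1.47, 1.68 and 2.06.

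MDM2 (ENSG00000135679, chromosome 12, 68808176 to 68850686, plus strand), the ubiquitin ligase for p53, was slightly lower in receptor cells. It stood at 65.7, 74.2 and 66.1 CPM in the controls, 59.2, 60.5 and 60.2 CPM in ERβ1 cells and 56.2, 59.8 and 54.6 CPM with CLI. The receptor libraries lay below all controls, of which replicate 2 was the highest. The log2 fold change was -0.20 ± 0.06 (SE) in ERβ1 cells (edgeR adjusted p = 0.0363) and -0.27 ± 0.06 with CLI (adjusted p = 0.00699), the latter 0.828-fold. The first call was lost in 10 of 19 alternatives, including each case without control replicate 2 or 3, ERβ1 replicate 1, 2 or 3 or the first library with CLI, at adjusted p of 0.0545 to 0.119, and it was -0.13 without control replicate 2. The second held in all 19. CLI against ERβ1 cells gave -0.08, with a 95% interval of -0.20 to 0.05 (edgeR adjusted p = 0.645).

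Thus CDKN1A and MDM2, which p53 can induce together, differed in direction against control when CLI was present. The ratio of CDKN1A to MDM2 within a library was 1.57, 1.34 and 1.52 in control, 1.71, 1.67 and 1.67 in ERβ1 cells and 2.04, 1.99 and 2.14 with CLI. No library of a group fell within the range of another, but the ratio joins members already called in these data and is not a further test. Between ERβ1 and control cells CDKN1A was not called, and the MDM2 call was lost in 10 of 19 alternatives. MDM4, the partner of MDM2, ranged from 28.2 to 56.3 CPM over all libraries and was not called with the receptor or with CLI against ERβ1 cells (log2 fold changes 0.28 and -0.33, edgeR adjusted p = 0.291 and 0.477).

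BTG2 (ENSG00000159388, chromosome 1, 203305491 to 203309602, plus strand) encodes an antiproliferative protein that recruits the CCR4-NOT deadenylase to messenger RNAs. It was the least abundant member, with 50 to 119 counts per library, and counting error alone gives a CV of 14.1% at the lowest count. Its level was 1.21, 1.47 and 1.17 CPM in the controls, 1.85, 2.12 and 2.63 CPM in ERβ1 cells and 1.9, 1.6 and 1.67 CPM with CLI. All receptor libraries exceeded all controls, and the libraries with CLI reached into the lower part of the ERβ1 range. BTG2 rose 1.72-fold in ERβ1 cells (log2 fold change 0.78 ± 0.18, SE, 95% interval 0.38 to 1.18, edgeR adjusted p = 0.0143), a call that held in 18 of 19 alternatives. The exception was the block fitted within the 6 libraries (0.0734). With CLI against control the log2 fold change was 0.43 (95% interval 0.02 to 0.83, edgeR adjusted p = 0.115), and against ERβ1 cells it was -0.35 (-0.75 to 0.04, adjusted p = 0.453). Of its relatives, BTG1 stood at 88.8 ± 1.92 CPM in control and 97.4 ± 2.99 CPM with CLI (SD, n = 3; log2 fold change 0.13, edgeR adjusted p = 0.0276), a call lost without control replicate 2 or 3 or the second library with CLI (0.0822, 0.0648 and 0.068).

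SESN1 (ENSG00000080546, chromosome 6, 108986437 to 109094819, minus strand) encodes a sestrin, a stress-induced restraint on the growth kinase complex mTORC1. Its level of 6.07, 7.42 and 5.22 CPM in the controls, 5.7, 3.93 and 4.97 CPM in ERβ1 cells and 5.54, 5.45 and 6.55 CPM with CLI overlapped between groups. The log2 fold changes were -0.36 in ERβ1 cells against control (95% interval -0.75 to 0.03, edgeR adjusted p = 0.177) and 0.27 for CLI (-0.12 to 0.66, adjusted p = 0.586). Its relative SESN2, a target of both p53 and the stress factor ATF4, fell from 56.2 ± 0.645 CPM in control to 31.7 ± 1.75 CPM in ERβ1 cells and stood at 32.5 ± 3.56 CPM with CLI (SD, n = 3 each). Its log2 fold changes against control were -0.83 and -0.79 (edgeR adjusted p = 0.000128 and 0.00011), and both calls held in all 19 alternatives. SESN3 ranged from 10.7 to 14.3 CPM over the 9 libraries and was not called.

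Reads of some members overlap annotated genes on the other strand. Exons of CDKN1A overlap the noncoding gene DINOL, those of MDM2 overlap CPM and a further antisense gene, and those of SESN1 overlap an antisense gene. The library kit marks strand, but the strand setting of the counting is not given in the sources used here, so a share of such reads cannot be told apart. MDM2 exons also overlap a processed pseudogene on the same strand, where the split of reads is uncertain.

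Promoter windows of 300 bases (250 before to 50 after a start site, RefSeq, GRCh38.p14) were on hand for 7 of the 9 genes, in 14 windows; CDKN1C and GADD45A had none in the table. The 5 windows below are shown because they belong to members that changed or, for SESN1, because it alone held an exact match to the p53 decamer searched. They are written 5′ to 3′ in lower case, with capitals at matches on either strand to the motifs searched: the full oestrogen response element GGTCANNNTGACC, its single arm GGTCA, the AP-1 motif TGANTCA, the Sp1 motif GGGCGG, the TATA box TATAAA, and the p53 decamer and the NF-kB motif by name.
CDKN1A (chr6:36678464-36678763, plus strand): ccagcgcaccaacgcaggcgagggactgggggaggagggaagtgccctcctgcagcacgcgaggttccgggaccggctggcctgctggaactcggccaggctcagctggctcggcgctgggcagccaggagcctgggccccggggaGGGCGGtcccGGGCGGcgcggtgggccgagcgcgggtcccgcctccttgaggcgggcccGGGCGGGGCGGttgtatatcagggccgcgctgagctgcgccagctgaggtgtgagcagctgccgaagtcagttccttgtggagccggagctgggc
GADD45B (chr19:2475877-2476176, plus strand): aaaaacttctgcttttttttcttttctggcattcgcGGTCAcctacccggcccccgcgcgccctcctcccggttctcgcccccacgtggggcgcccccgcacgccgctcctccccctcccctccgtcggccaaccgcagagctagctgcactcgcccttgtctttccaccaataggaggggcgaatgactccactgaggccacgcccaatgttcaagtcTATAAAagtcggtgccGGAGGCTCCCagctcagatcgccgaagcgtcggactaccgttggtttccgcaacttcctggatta
BTG2 (chr1:203305269-203305568, plus strand): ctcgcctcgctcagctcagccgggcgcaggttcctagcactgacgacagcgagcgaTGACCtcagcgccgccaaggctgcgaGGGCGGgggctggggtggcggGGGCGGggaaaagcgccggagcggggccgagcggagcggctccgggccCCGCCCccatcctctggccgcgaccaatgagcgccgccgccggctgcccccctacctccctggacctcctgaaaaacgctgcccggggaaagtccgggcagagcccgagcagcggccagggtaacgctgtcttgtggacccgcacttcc
MDM2 (chr12:68808767-68809066, plus strand): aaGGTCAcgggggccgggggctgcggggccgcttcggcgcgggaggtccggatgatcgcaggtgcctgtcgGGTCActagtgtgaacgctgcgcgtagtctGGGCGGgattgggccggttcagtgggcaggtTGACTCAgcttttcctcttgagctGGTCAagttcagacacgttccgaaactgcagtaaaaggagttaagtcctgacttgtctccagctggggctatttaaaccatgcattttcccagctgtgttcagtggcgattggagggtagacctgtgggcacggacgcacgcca
SESN1 (chr6:109008939-109009238, minus strand): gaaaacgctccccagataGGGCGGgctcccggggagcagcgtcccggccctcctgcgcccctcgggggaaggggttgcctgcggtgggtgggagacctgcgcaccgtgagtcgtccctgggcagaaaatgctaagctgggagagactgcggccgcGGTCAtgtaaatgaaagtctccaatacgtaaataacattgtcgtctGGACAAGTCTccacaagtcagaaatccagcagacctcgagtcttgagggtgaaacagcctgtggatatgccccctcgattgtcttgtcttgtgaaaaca

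The CDKN1A window had 4 Sp1 matches, the first 104 bases before its start site, and no match to the other motifs. In GADD45B the TATA box began 31 bases and the NF-kB match 15 bases before the start site, and a GGTCA arm 214 bases before it. BTG2 had a GGTCA arm 194 bases before its start site and 3 Sp1 matches. MDM2 had 4 windows, and the one shown lies at its internal promoter and held the most matches of the 4. It had an AP-1 match at 118 bases and 3 GGTCA arms from 248 to 94 bases before the start site. A further window overlaps it for most of its length, while each of the remaining MDM2 windows, around the outer start, held 1 Sp1 match and no GGTCA arm or AP-1 match. SESN1 had 3 windows, and the one shown had the p53 decamer 49 bases before the start site shown. Over all 35116 windows in the table, 0.057% held the full oestrogen response element, 37.4% its arm, 7.71% the AP-1 motif, 45% the Sp1 motif, 11.5% the TATA box, 6.63% the p53 decamer and 7.73% the NF-kB motif. The full element was in 0 of the 14 member windows. The arm lies inside the full element, so those matches overlap by construction, and a match shows letters and not binding. Matches had to be exact, with no mismatch allowed. A window without a p53 match, those of MDM2 among them, may therefore still hold a p53 site that departs from the pattern.

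Other genes of the p53 pathway and of the machinery that the inhibitors act on were read from lists. Of 28 other p53 targets tested, 1 was called higher and 4 lower in ERβ1 cells, 0 for CLI against ERβ1 cells, and 5 higher and 4 lower with CLI against control, with median log2 fold changes of -0.06, 0.03 and -0.07. Over all genes, 10.7% were called in each direction in ERβ1 cells, and 13.3% higher and 13.1% lower with CLI against control. With 1 library left out, those called lower in ERβ1 cells numbered 1 to 5, with 1 without control replicate 1 or 3 or ERβ1 replicate 3 and 2 without ERβ1 replicate 1 or 2. Those called higher there numbered 0 to 2, with 2 without control replicate 3 and 0 without any other control or ERβ1 library. Those called higher with CLI against control numbered 2 to 5, with 3 without control replicate 1 or ERβ1 replicate 2 and 2 without control replicate 2 or any library with CLI. BAX, a pore-forming apoptosis protein gene, fell from 68.8 ± 1.74 to 58.5 ± 1.07 CPM in ERβ1 cells (SD, n = 3), or by 0.23 in log2 units (edgeR adjusted p = 0.0197), a call lost without control replicate 1 or 3 or ERβ1 replicate 1, 2 or 3, at adjusted p of up to 0.0758. The death receptor gene TNFRSF10B fell by 0.13 in log2 units (edgeR adjusted p = 0.0295), which was lost in 10 of 19 alternatives, among them without control replicate 1 or 3, ERβ1 replicate 1 or 3 or the first library with CLI. Both BAX and TNFRSF10B were also called lower with CLI against control (log2 fold changes -0.25 and -0.15, edgeR adjusted p = 0.0111 and 0.0168). With CLI against control, TP53INP1, an autophagy and stress gene, rose from 11.1 ± 0.663 to 14.4 ± 0.173 CPM and PERP, a desmosome and apoptosis gene, from 78.5 ± 2.45 to 90.6 ± 2.81 CPM (SD, n = 3; edgeR adjusted p = 0.00285 and 0.00396), in all 19 alternatives.

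Of 15 genes of the p53 family and its regulators, 3 were lower and 0 higher in ERβ1 cells, and 2 lower and 1 higher with CLI against control. Over all genes, 10.7% were called in each direction in ERβ1 cells, and 13.1% lower and 13.3% higher with CLI against control. TP73, the p53 relative p73, fell from 11 ± 1.56 CPM in control to 5.49 ± 0.488 CPM in ERβ1 cells and stood at 5.24 ± 0.607 CPM with CLI (SD, n = 3 each). These were 0.499-fold and 0.476-fold of control (edgeR adjusted p = 0.000965 and 0.000483). The checkpoint kinase gene CHEK2 fell from 18.5 ± 1.07 to 11.9 ± 0.318 CPM, and to 13.7 ± 1.21 CPM with CLI (SD, n = 3; log2 fold changes -0.63 and -0.44, edgeR adjusted p = 0.000684 and 0.00354). These TP73 and CHEK2 calls held in all 19 alternatives. The p53 kinase gene HIPK2 fell by 0.17 in log2 units in ERβ1 cells (edgeR adjusted p = 0.0145), lost without control replicate 1 or 2 or ERβ1 replicate 1 (up to 0.0558), and USP7, a protease that spares MDM2 and p53, rose by 0.12 with CLI against control (adjusted p = 0.0418), lost without any library except the first with CLI (up to 0.123).

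The kinases and cyclins changed little. Of 12 tested, 2 were lower and 0 higher in ERβ1 cells, 0 changed for CLI against ERβ1 cells, and 3 were lower with CLI against control. The shares of all genes were 10.7% lower and 10.7% higher, 1.47% called, and 13.1% lower, in the same order. CDK4 stood at 135 ± 3.75 CPM in control, 123 ± 5.23 CPM in ERβ1 cells and 116 ± 1.09 CPM with CLI (SD, n = 3). Its fall with CLI against control (log2 fold change -0.21, edgeR adjusted p = 0.00378) held in all 19 alternatives, but that without CLI (-0.14, adjusted p = 0.034) was lost in 11, among them without control replicate 2 or 3, ERβ1 replicate 1 or 2 or the first or second library with CLI. CDK1 fell in ERβ1 cells to 0.876-fold of its control level of 192 ± 6.99 CPM (SD, n = 3; edgeR adjusted p = 0.0048) and by 0.16 with CLI against control (adjusted p = 0.00775). CCNE2 was called lower with CLI (-0.15, edgeR adjusted p = 0.0479), a call lost without any of the 9 libraries. The abundant cyclin gene CCND1 ranged from 815 to 893 CPM and CDK6 from 112 to 132 CPM over the 9 libraries, and neither was called.

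Of 11 retinoblastoma and E2F genes, 5 were lower and 0 higher in ERβ1 cells, and 6 lower and 0 higher with CLI against control, with medians of -0.14 and -0.22 on the log2 scale against -0.00057 and -0.00023 over all genes, of which 10.7% and 13.1% were called lower. The count in ERβ1 cells was 2 without ERβ1 replicate 1 and 3 without control replicate 1 or 2 or ERβ1 replicate 2, while that with CLI was 5 to 6 with any library left out. The factor gene E2F5 fell from 15.6 ± 1.05 to 11.2 ± 0.874 CPM (SD, n = 3), or 0.716-fold (edgeR adjusted p = 0.00285), and E2F4 from 69.6 ± 1.38 to 59.8 ± 1.38 CPM (-0.22, adjusted p = 0.00878) in ERβ1 cells. E2F3 fell by 0.16 there (edgeR adjusted p = 0.0131), lost without control replicate 1 or ERβ1 replicate 1 (0.0581 and 0.0514), and by 0.27 with CLI (adjusted p = 0.000615), where TFDP1, the DNA-binding partner of E2F proteins, fell by 0.25 and E2F4 by 0.27. Of 7 genes for the ubiquitin ligases that remove CDKN1B and cyclins, 2 were lower and 1 higher in ERβ1 cells and 3 lower with CLI against control. Over all genes, 10.7% were lower and 10.7% higher in ERβ1 cells, and 13.1% lower with CLI against control. CKS1B, which helps SKP2 recognise CDKN1B, fell from 137 ± 1.01 to 113 ± 1.07 CPM, and to 110 ± 4.14 CPM with CLI (SD, n = 3; log2 fold changes -0.27 and -0.31, edgeR adjusted p = 0.000706 and 0.000241), in all 19 alternatives. SKP2 fell by 0.23 with CLI (edgeR adjusted p = 0.00647) and CUL1 by 0.14 and 0.16 without and with it (0.0148 and 0.00686), the former lost without control replicate 2 or 3 or ERβ1 replicate 2 or 3. FBXO31 rose by 0.34 in ERβ1 cells (edgeR adjusted p = 0.0197), lost without control replicate 2 or 3 or ERβ1 replicate 2 (up to 0.064).

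The last list held genes of the FOXO, KLF and SMAD families and of other factors known to act on these promoters. SMAD7 is in the list as a SMAD family gene that inhibits signalling, and not as such a factor. Of 11 tested, 4 were higher and 1 lower in ERβ1 cells, 1 higher for CLI against ERβ1 cells, and 5 higher and 1 lower with CLI against control. The shares of all genes were 10.7% each way, 1.04% higher, and 13.3% higher and 13.1% lower, in the same order. With 1 library left out, the listed genes higher against control numbered 3 to 5 in both receptor groups, and for cells with CLI the 3 came without control replicate 2. The gene called lower was lost in ERβ1 cells without control replicate 2 or any ERβ1 library, and with CLI without control replicate 1 or 2 or the second library with CLI or the third. SMAD7, a feedback inhibitor of TGF-beta signalling, rose from 13.9 ± 1 CPM in control to 23.9 ± 1.19 CPM in ERβ1 cells and 30.4 ± 1.4 CPM with CLI (SD, n = 3; log2 fold changes against control 0.78 and 1.14, edgeR adjusted p = 0.000106 and 8.12e-06). Its further rise with CLI over ERβ1 cells (0.35, edgeR adjusted p = 0.0461) was lost with the replicate number as a block (0.0871), without any library other than control replicate 1 (0.0652 to 0.166), and in 13 of 19 alternatives in all. FOXO1, a factor that can induce CDKN1B and GADD45A, rose from 4.03 ± 0.11 to 6.98 ± 0.25 and 8.08 ± 0.497 CPM (log2 fold changes 0.79 and 1.00, edgeR adjusted p = 0.00026 and 4.42e-05). KLF4, which can induce CDKN1A, rose from 46.6 ± 1.19 to 55.3 ± 3.76 and 64.3 ± 0.512 CPM (0.25 and 0.47, adjusted p = 0.00911 and 0.000234), and the FOXO1, KLF4 and SMAD7 calls against control held in all 19 alternatives.

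**Figure D4:**
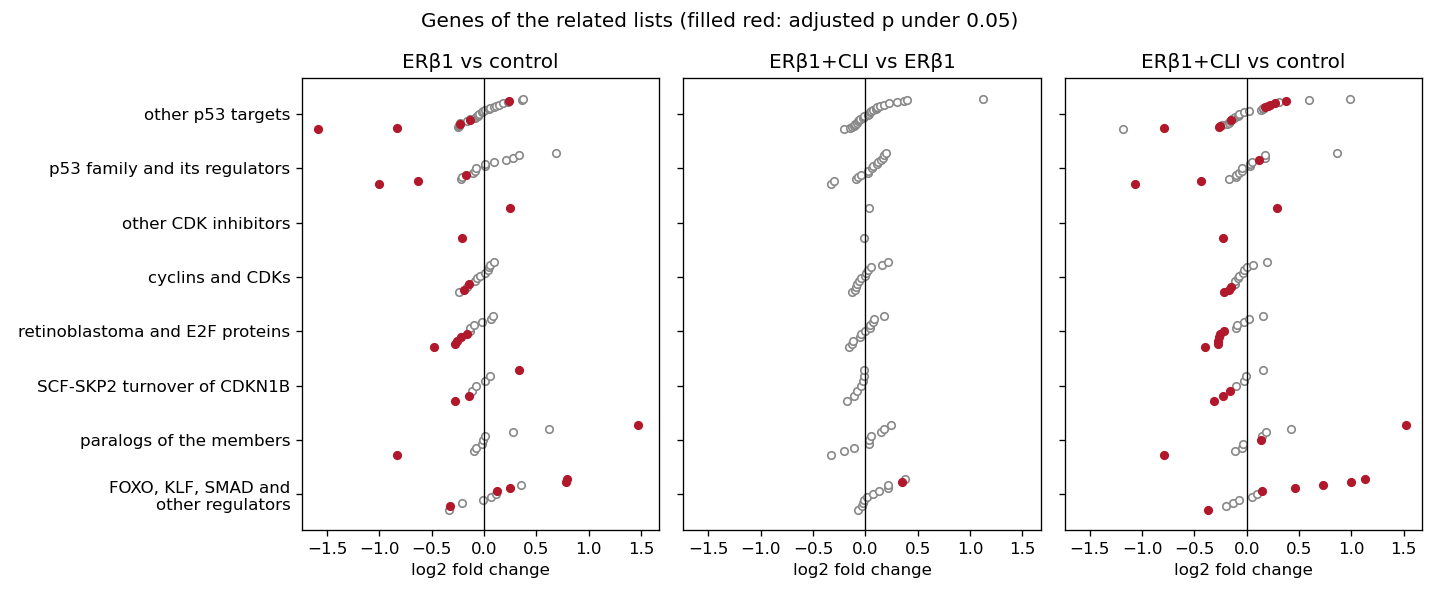
Log2 fold change (x axis) of each tested gene of 8 related lists (rows, genes spread by rank) in the 3 comparisons. Filled red points were called at an adjusted p under 0.05; in the middle panel, CLI against ERβ1 cells, SMAD7 is the single gene called.

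For each changed member the genes with the most similar pattern were found by Pearson's correlation of log2 CPM over the 9 libraries, among the 11830 or 11831 genes averaging 2 CPM or more. The correlations rest largely on the differences between groups and are given as a description. GADD45A was closest to BAG2, a chaperone regulator gene (r = 0.998), and LHX4, a homeobox gene (r = 0.997), which averaged 77.7 and 5.41 CPM in control and 62.2 and 1.97 CPM in ERβ1 cells. CDKN1A was closest to INHBB, the inhibin beta B gene (r = 0.988), and MANF, a secreted factor of the endoplasmic reticulum stress response (r = 0.986). INHBB averaged 2.11, 1.82 and 6.75 CPM and MANF 51.8, 51.8 and 70.2 CPM in control, ERβ1 and ERβ1 cells with CLI. GADD45B was closest to FOXN3 (r = 0.972) and DNAJB5 (r = 0.964), of which DNAJB5, a heat shock protein gene, averaged 13.3, 23.3 and 37.2 CPM. MDM2 was closest to ACTL6A and DGKH (r = 0.977 each) and BTG2 to CREB3L1 (r = 0.978) and DIP2B (r = 0.973).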

How the data were processed

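The estimated counts per gene were deposited by the authors with no normalization stated, and the log2 CPM by the authors carry TMM scaling in their file name. Per the submitters' processing notes, Trimmomatic 0.38, Salmon 1.2.1 and edgeR 3.30.3 were used with GRCh38, while the sources used here give neither settings nor annotation release. Controls appear as wild type in the count columns and were matched by treatment and replicate number; labels that number the cell line upward were read as MDA-MB-231.

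After rounding, the counts went into edgeR 4.0.16 under R 4.3.3: filterByExpr by group, TMM, and 1 quasi-likelihood fit of all 9 libraries, with 2-sided tests and Benjamini-Hochberg adjustment over 17058 genes. Calls needed an adjusted p under 0.05. SE is the log2 fold change divided by the square root of F. Exact permutation of 3 against 3 cannot go below 0.1. The code was tested on simulated data. The 19 alternatives comprised no filter, a 1 CPM filter, scaling by RLE, by upper quartile or by TMM leaving out ESR2, DESeq2 1.42.0, limma-trend (3.58.1) on the deposited log2 CPM, the 6 libraries alone, the replicate block, each of 9 libraries left out, and, added after seeing the data, the block within 6 libraries. Replicate numbers counted as pairs for ERβ1 cells with and without CLI, where the numbers come from the sample titles and same-numbered libraries deviated together (correlations 0.117, 0.454 and 0.206, each over 0.1). Some differently numbered libraries did so too. The correlation was 0.182 between the first with CLI and ERβ1 replicate 3, and 0.152 between the third with CLI and ERβ1 replicate 1. The matching by number was thus clear for number 2 only. Chi-square per gene between replicates was 11.7 to 23.8, above sampling noise. Positions come from GENCODE release 29.

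Values of 2 listed genes are not reported here. Members and lists were chosen with earlier results of these data known. Named beside the members are, per list and comparison, up to 3 called genes with the smallest adjusted p, a fixed set of genes and the 2 genes most like each changed member. Some cell type markers and the SMAD genes called lower are named as well. Figures used Python 3.11.15 and matplotlib 3.10.9.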

Additional observations from a re-analysis of the deposited data

How the results depend on the processing

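The calls of GADD45A against control in both receptor groups, and of CDKN1A, GADD45B and MDM2 with CLI against control, held under every alternative run. In ERβ1 cells against control, the members called higher numbered 2 in place of 1 with no filter, with the 1 CPM filter and with DESeq2, 0 with the block within 6 libraries, and 1 to 2 with a library left out. Those called lower numbered 1 in place of 2 with upper quartile scaling, no filter, the 6 libraries alone and the block within them, and 1 to 2 with a library left out. All genes called there were 2230 in place of 3645 with the block within 6 libraries, and 2517 to 3649 with a library left out. For CLI against ERβ1 cells, all genes called were 641 with DESeq2, 158 with the 6 libraries alone, 66 with the block within them, 136 with the block over 9 and 114 to 211 with a library left out, in place of 251. The members called higher there were 0 in place of 1 with either replicate block, and 0 to 1 with a library left out. Signs turned where the gene was not called in that comparison: CDKN1A in ERβ1 cells (-0.0036 without control replicate 2, -0.0036 to 0.022 over the libraries left out), and with CLI against control CDKN1B (0.0083 without the second library with CLI, range -0.19 to 0.0083), CDKN1C (-0.036, -0.053 and -0.023 without control replicate 1 or 3 or the first library with CLI, range -0.053 to 0.16) and SESN1 (0.057 without control replicate 2, range -0.20 to 0.057). CDKN2C with CLI against control was also called with the replicate block (0.0142), where the numbers did not count as pairs, with the block within 6 libraries (0.0304) and with DESeq2 (0.0367). The causes were not tested. Over the 9 members, 482 values kept direction and side of the threshold, 17 lost and 8 gained a call and 6 changed sign. Counting error at the lowest count was 14.1% for BTG2, 7.07% for SESN1 and 6.14% for CDKN1C, beside control CVs of 12.8%, 17.8% and 16%.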
